A study of Mus musculus with 22 samples.

Results

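Hif1a, Egln1, Egln2, Egln3, Ankrd37, Bnip3, Vegfa, Ddit4 and Ndrg1 are genes of the oxygen-sensing pathway of the cell, and their mRNA levels were followed in mouse macrophages given lipopolysaccharide (LPS), interleukin-10 (IL-10) or both. The 9 genes are those of 38293 in the abundance tables that carry these symbols. They were chosen by their measured difference between LPS with IL-10 and LPS, which changed between 3, 6 and 12 h in these same libraries, so that difference is described below and is not tested. Tests of LPS against control, and between times of LPS, use the same LPS libraries and are not independent of this choice. All 9 passed the filter on low values in both tables, which asked for 10 or more normalized reads in 2 or more libraries.

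The cells were primary bone marrow-derived macrophages of IL-10-deficient mice (Il10-/-, C57BL/6 background, 6 to 12 weeks of age), grown for 7 to 8 days with 30% L929 supernatant and 10% fetal calf serum. Every group, controls included, lacked Il10, so the only IL-10 was the cytokine that was added. One table held an untreated control, LPS, IL-10 alone and LPS with IL-10, each after 3 h. The other table held a single control. It also held LPS, IL-10 alone and LPS with IL-10 after 6 h, and the same 3 treatments after 12 h. LPS and IL-10 were each given at 100 ng/ml, and each of the 11 groups had 2 libraries. The labels do not say when the second control was harvested, how the allele was deleted, or whether the 2 libraries of a group came from separate cultures or animals, so a p-value measures only the spread between these libraries, which may be technical.

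Hypoxia-inducible factors are transcription factors made of an oxygen-regulated alpha subunit, such as the product of Hif1a, and a stable beta subunit, the product of Arnt. When oxygen is present, prolyl hydroxylases of the Egln family mark the alpha subunit, the Vhl protein binds it and it is degraded, whereas in low oxygen the alpha subunit persists and binds DNA at a short element with the core ACGTG or GCGTG. Several targets act on the pathway itself, since Egln1 and Egln3 are HIF targets and Egln2 is usually not induced by hypoxia. In macrophages LPS is known to raise Hif1a mRNA in normal oxygen, and HIF-1 is known there for its part in glycolysis and cytokine production. The present values are mRNA levels and say nothing of the HIF proteins or of oxygen.

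The sequences just upstream of the transcription starts are shown because the HIF core element is read from DNA. At 6 h, 8 of the 9 genes were higher in both libraries of LPS with IL-10 than in both of LPS. That contrast chose the members, and 34.5% of all genes were higher in this way and 33.5% lower. A link between these sequences and the levels was not tested. The 250 bases before each RefSeq start were taken from the RefSeq table of GRCm38.p6 and were found for 8 members, all but Ndrg1. Both 5-base forms of the core, ACGTG and GCGTG, were searched on both strands, and matches are in capitals, read 5′ to 3′ along the strand of the gene. All 5 windows lie on the minus strand: Egln3 at chr12:54203875-54204124, Ankrd37 at chr8:45999851-46000100, Bnip3 at chr7:138909507-138909756, Ddit4 at chr10:59951771-59952020 and Vegfa at chr17:46032378-46032627.
Egln3: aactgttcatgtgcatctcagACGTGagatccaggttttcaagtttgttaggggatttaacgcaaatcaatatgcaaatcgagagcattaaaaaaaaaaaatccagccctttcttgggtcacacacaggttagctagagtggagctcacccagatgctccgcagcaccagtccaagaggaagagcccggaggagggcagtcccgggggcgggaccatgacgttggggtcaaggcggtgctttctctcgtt
Ankrd37: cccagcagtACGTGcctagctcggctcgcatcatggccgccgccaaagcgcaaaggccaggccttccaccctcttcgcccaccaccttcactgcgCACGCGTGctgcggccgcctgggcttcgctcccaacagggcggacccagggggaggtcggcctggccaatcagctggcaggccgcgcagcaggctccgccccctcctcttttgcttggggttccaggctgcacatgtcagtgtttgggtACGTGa
Bnip3: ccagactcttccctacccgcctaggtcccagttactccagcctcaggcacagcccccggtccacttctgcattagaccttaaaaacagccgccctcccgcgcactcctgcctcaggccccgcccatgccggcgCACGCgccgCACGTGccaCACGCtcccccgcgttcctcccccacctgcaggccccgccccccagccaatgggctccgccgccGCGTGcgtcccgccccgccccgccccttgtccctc
Ddit4: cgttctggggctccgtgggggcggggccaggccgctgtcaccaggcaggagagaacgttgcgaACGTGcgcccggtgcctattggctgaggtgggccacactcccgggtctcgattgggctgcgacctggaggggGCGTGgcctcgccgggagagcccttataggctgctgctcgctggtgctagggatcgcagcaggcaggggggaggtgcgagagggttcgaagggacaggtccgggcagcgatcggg
Vegfa: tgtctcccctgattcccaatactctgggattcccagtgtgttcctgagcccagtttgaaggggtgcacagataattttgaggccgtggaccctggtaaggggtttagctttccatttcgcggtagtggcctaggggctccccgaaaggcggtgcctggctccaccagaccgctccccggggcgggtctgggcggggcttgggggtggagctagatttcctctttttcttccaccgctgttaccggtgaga
Egln3 holds 1 ACGTG, whose first base lies at position -229 from the start. Ankrd37 holds one at -241 and another at -6, beside overlapping GCGTG matches on both strands. Bnip3 holds CACGTG, which reads ACGTG on each strand, and 3 GCGTG matches, and Ddit4 holds 1 of each form. Vegfa holds neither form in its window, which says only that these letters are not there. Egln2, the member that was lower at 6 h, holds 1 ACGTG at -48 and 3 GCGTG matches in its window (not shown). ACGTG was present in 7 of the 8 member windows, against 16.6% of all 32851 windows of the table and 21.5% of the 12048 windows of genes tested at 6 and 12 h. Either form was present in the same 7, against 38.6% and 54.8%. The members are genes of the HIF pathway, so these shares are a description and not a test. A match is a run of letters and not a binding site. The RefSeq start used for Ankrd37 lies 5857 bases from the 5′ end of its GENCODE gene, and that of Hif1a 6492 bases.

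Recovered depth ran from 9337222 to 31772075 reads per library. All 8 macrophage markers were high (summed level 330884 to 626254 normalized reads over both tables). Their sum moved with treatment. At 3 h it was 352143 to 381687 in the control, 478592 to 492284 with LPS and 494777 to 500852 with both agents. In the second table it was 370405 to 442422 in the control, 584853 to 626254 with 6 h of LPS and 389151 to 422232 with both. The 3 mast cell markers summed to 0 to 7.94 and the 3 erythroid markers to 0 to 2.81, the 7 of neutrophils and their precursors to 31.1 to 125 and the 6 of T and NK cells to 29.8 to 81.7, where Cd3e reached 1.67 and Cd4 lay at 22.01 to 80.5. Sums of other lists also moved with LPS in the second table. The 4 dendritic cell markers summed to 18.7 to 27.9 in the control, 181 to 193 with 6 h of LPS and 84.1 to 102 with both agents, and at 3 h to 44.1 to 63.3, 286 to 325 and 198 to 204, with Xcr1 reaching 310.3 at 3 h and 182 later. The 5 fibroblast markers summed to 2.81 to 3.10 in the second control, 84.6 to 126 with 6 h of LPS and 56.6 to 56.7 with both, with Dcn reaching 179 and the collagen gene Col3a1 at 0 in every library. The 2 endothelial markers, mostly Cdh5, summed to 19.7 to 19.8, 57.1 to 73.7 and 21.6 to 49.1 in the same groups. The part of such cells in the results below was not tested. In bulk RNA, fewer cells of a type and less RNA per cell cannot be told apart. The difference between the 2 libraries of a group followed the GC content of the transcripts in most groups, most in the second control (Spearman's rho across genes -0.80). Egln2 lies at the percentile 99.0 of GC content among tested genes, Ddit4 at 91.8 and Egln1 at 84.7, whereas Hif1a lies at 10.9 and Bnip3 at 11.9. Libraries also stood apart at 12 h. Tnf was 38464 and 131395 in the LPS libraries, 87528 and 3275 in those of LPS with IL-10, and the interferon-induced gene Rsad2 was 10809.9 and 796 with IL-10 alone.

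**Figure D1:**
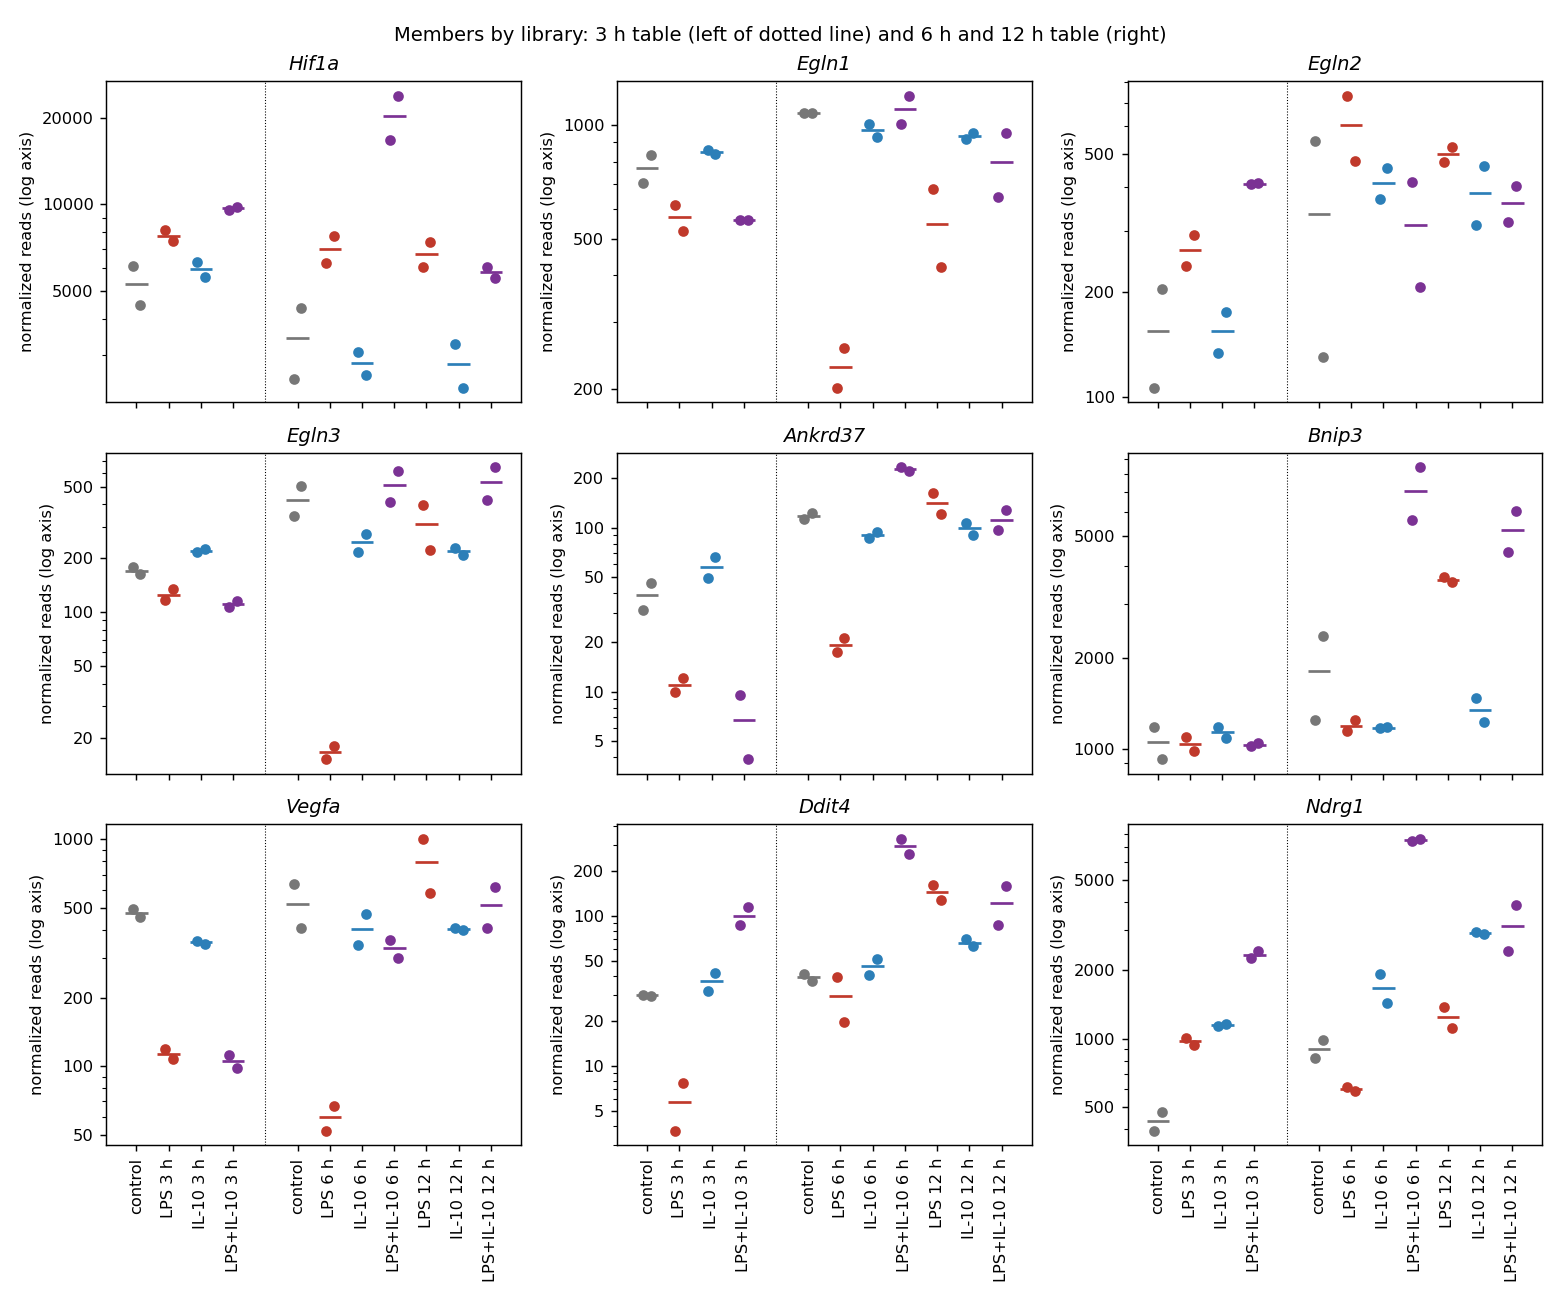
Normalized reads of the 9 genes in every library (points, log axis) with the group mean (bars), for the 3 h table left of the dotted line and the 6 and 12 h table right of it. The LPS with IL-10 libraries at 6 h have the highest group mean of the second table for Hif1a, Egln1, Ankrd37, Bnip3, Ddit4 and Ndrg1, and the LPS libraries at 6 h the lowest for Egln1, Egln3, Ankrd37, Vegfa, Ddit4 and Ndrg1. The tables were normalized separately, so levels are not compared across the dotted line.

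At 3 h of LPS, the difference with IL-10 was 3.97 ± 0.34 for Ddit4 and 1.27 ± 0.11 for Ndrg1 on the log2 scale, and the other 7 genes lay between -0.74 and 0.64. At 6 h, 8 of the 9 were higher in both libraries of LPS with IL-10 than in both of LPS, from 2.90-fold for Hif1a to 30.9-fold for Egln3, and Egln2 was lower in both (34.5% of all genes were higher in this way and 33.5% lower). At 12 h Ndrg1 was at 1.30 ± 0.23 and the other 8 lay between -0.61 and 0.80. These 12 h values depended on single libraries. Leaving out 1 library at a time gave 0.97 to 1.63 for Ndrg1, 0.38 to 1.22 for Egln3 and 0.21 to 0.90 for Egln1. For Vegfa it gave -1.01 to -0.21. Folds are ratios of group means, and log2 changes are differences of group means of log2(normalized reads + 1), which understate the change of low genes. By the limma threshold used elsewhere (Benjamini-Hochberg adjusted p of 0.05 over all genes) 2 members were higher at 3 h, when 4.68% of all genes were, and none was lower (4.92%). At 6 h the count was 8, when 13.7% of all genes were higher, with none lower (10%), and at 12 h it was 1, when 2.68% were, with none lower (2.23%). These counts come from the contrast that chose the members and are given as a description. The median log2 change of the members was -0.01 at 3 h, 2.54 at 6 h and -0.21 at 12 h, against 0.01, 0.01 and -0.06 for all genes tested.

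**Figure D2:**
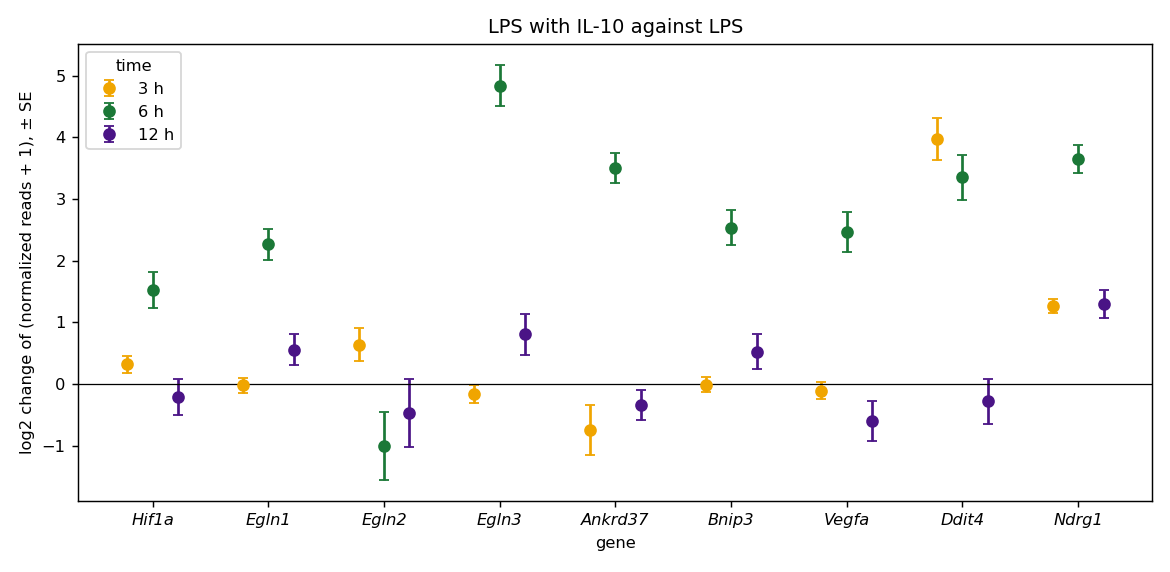
Log2 change of (normalized reads + 1), LPS with IL-10 against LPS, for each gene at 3, 6 and 12 h (points) with the standard error of the fit (bars). At 6 h the points of 8 genes lie between 1.52 and 4.84, and at 12 h only that of Ndrg1 lies above 1. Leaving out 1 library at a time, the 12 h value went up to 1.22 for Egln3 and down to 0.97 for Ndrg1.

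Hif1a (ENSMUSG00000021109, chromosome 12, 73901375 to 73947530, plus strand, GRCm38) encodes the oxygen-regulated subunit itself. Its 3 h control libraries held 6135 and 4469 normalized reads, those of LPS 8131 and 7437, those of IL-10 alone 6327 and 5581, and those of LPS with IL-10 9600.0 and 9793. Both LPS groups lay above the control, and IL-10 alone overlapped it. LPS raised Hif1a 1.47-fold at 3 h (log2 0.57 ± 0.14 SE, limma adjusted p = 0.0074), 2.05-fold at 6 h (1.08 ± 0.29, limma adjusted p = 0.0075) and 1.97-fold at 12 h (1.03 ± 0.29, limma adjusted p = 0.013), but with all libraries scaled to equal totals these changes were -0.02, -0.06 and 0.29 and none was called.

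In the second table the control held 2484 and 4362 normalized reads of Hif1a, and LPS held 6267 and 7744 at 6 h and 6061 and 7429 at 12 h. LPS with IL-10 held 16744 and 23870.3 at 6 h, the highest of any group, and 6066 and 5559 at 12 h. The 6 h level with both agents thus stood apart from that at 12 h and from LPS without IL-10. The log2 change of LPS with IL-10 against LPS was 0.32 ± 0.14 at 3 h, 1.52 ± 0.29 at 6 h and -0.21 ± 0.29 at 12 h, and the 12 h value minus the 6 h value was -1.73 ± 0.41. IL-10 alone held 3067 and 2561 at 6 h, inside the range of the control, and 3283 and 2311 at 12 h, overlapping it. The LPS call at 3 h was lost without the first LPS library (0.51, limma adjusted p = 0.063). Those at 6 and 12 h were lost without the first control library (0.68, limma adjusted p = 0.062, and 0.62, limma adjusted p = 0.094) or the second LPS library (0.93, limma adjusted p = 0.059, and 0.88, limma adjusted p = 0.094). IL-10 alone at 3 h was called without the first control library (0.41, limma adjusted p = 0.017). The annotated antisense gene Gm15283 shares 330 exon bases with Hif1a, whose reads cannot be told apart without a known strand setting, and Gm49321 on the same strand shares 148.

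Among the sensors, Egln1 (ENSMUSG00000031987, chromosome 8, 124908587 to 124949324, minus strand) encodes the main hydroxylase that acts on HIF-1 alpha in normal oxygen. At 3 h it held 705 and 833 normalized reads in the control, 614 and 525 with LPS, 861 and 841 with IL-10 alone and 561 and 559 with both. Its level was lower in both LPS groups than in the others and did not separate between them. LPS lowered it 1.35-fold at 3 h (log2 -0.43 ± 0.12, limma adjusted p = 0.013) and 4.72-fold at 6 h (-2.24 ± 0.25, limma adjusted p = 3.1e-05).

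In the second control Egln1 held 1079.9 and 1079.5 normalized reads. At 6 h LPS held 202 and 256, while LPS with IL-10 held 1007 and 1197. The group with both agents overlapped the control, and LPS lay far below. At 12 h LPS held 676 and 421, still 1.97-fold below the control (-1.02 ± 0.25, limma adjusted p = 0.0068), and LPS with IL-10 held 644 and 954, overlapping LPS. LPS with IL-10 against LPS was -0.02 ± 0.12 at 3 h, 2.27 ± 0.25 at 6 h and 0.55 ± 0.25 at 12 h on the log2 scale. IL-10 alone held 1010.0 and 928.5 at 6 h and 920.1 and 952 at 12 h, below the control, with neither called (-0.16 ± 0.25, limma adjusted p = 0.96, and -0.21 ± 0.25, limma adjusted p = 0.81). The 3 h call was lost without the second LPS library (-0.32, limma adjusted p = 0.12), and that at 12 h without the second LPS library there (-0.67, limma adjusted p = 0.075).

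Egln3 (ENSMUSG00000035105, chromosome 12, 54178981 to 54203860, minus strand) encodes the hydroxylase known as the most strongly hypoxia-induced of the family. At 3 h it held 178 and 163 normalized reads in the control, 117 and 134 with LPS, 217 and 224 with IL-10 alone and 107 and 115 with both. The second control held 342 and 505. At 6 h LPS held 15.2 and 17.9, and LPS with IL-10 411 and 612. Egln3 was thus almost gone with 6 h of LPS, at 7 and 11 reads before normalization, and at the level of the control when IL-10 was present. LPS lowered it 25.6-fold at 6 h (log2 -4.57 ± 0.34, limma adjusted p = 2.9e-06), the largest LPS change of the 9 genes, after a 1.36-fold fall at 3 h (-0.45 ± 0.15, limma adjusted p = 0.029). The 6 h LPS libraries behind this fall also enter the contrast that chose the members.

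By 12 h Egln3 was at 398 and 222 normalized reads with LPS, overlapping the control, and at 420.3 and 644 with both agents. LPS against control was then -0.48 ± 0.34 (log2, limma adjusted p = 0.27), and -1.22 and called at equal totals (limma adjusted p = 0.02). Between LPS with IL-10 and LPS the change was -0.17 ± 0.15 at 3 h, 4.84 ± 0.34 at 6 h and 0.80 ± 0.34 at 12 h on the log2 scale. The 12 h minus 6 h value was -4.04 ± 0.48. With IL-10 alone the gene held 216 and 274 at 6 h and 229 and 208 at 12 h, below both control libraries each time, and neither difference was called (log2 -0.77 ± 0.34, limma adjusted p = 0.96, and -0.93 ± 0.34, limma adjusted p = 0.26). The fall at 3 h was lost under DESeq2 (-0.45, adjusted p = 0.1) and without the first control library (-0.38, limma adjusted p = 0.074) or either LPS library (-0.35, limma adjusted p = 0.18 without the first, and -0.54, limma adjusted p = 0.051 without the second).

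Egln2 (ENSMUSG00000058709, chromosome 7, 27158658 to 27166802, minus strand) encodes the family member not usually induced by hypoxia, and it ran against the others. At 3 h it held 107 and 204 normalized reads in the control, 238 and 291 with LPS, 134 and 176 with IL-10 alone and 410.1 and 410.4 with both. It was higher with LPS and highest with both agents. LPS raised it 1.70-fold at 3 h (log2 0.83 ± 0.27, limma adjusted p = 0.027), a call lost at equal totals (0.25, limma adjusted p = 0.48), with edgeR (0.66, adjusted p = 0.052) and without the first control or either LPS library (0.37, 0.98 and 0.69, with limma adjusted p = 0.093, 0.057 and 0.15).

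In the second table the Egln2 control libraries lay far apart, at 542 and 130.1 normalized reads. LPS held 733 and 475 at 6 h and 474 and 523 at 12 h, IL-10 alone 371 and 455 and then 312 and 459, and LPS with IL-10 416 and 207 and then 317 and 403. Both libraries of LPS with IL-10 lay below both of LPS at 6 h and again at 12 h. The log2 change of LPS with IL-10 against LPS was 0.64 ± 0.27 at 3 h, -1.01 ± 0.55 at 6 h and -0.48 ± 0.55 at 12 h. LPS against control was not called at 6 h (1.15 ± 0.55, limma adjusted p = 0.095) or 12 h (0.90 ± 0.55, limma adjusted p = 0.2). With the GC trend of each library removed it was called at both (1.57, limma adjusted p = 3.5e-05, and 1.02, limma adjusted p = 0.001), as it was without the first control library (2.17, limma adjusted p = 0.0013, and 1.93, limma adjusted p = 0.0041). The change of LPS with IL-10 against LPS at 6 h was -0.43 with the GC trend removed.

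Of the targets, Ankrd37 (ENSMUSG00000050914, chromosome 8, 45996902 to 46005707, minus strand), which encodes an ankyrin-repeat protein, followed Egln3 closely. At 3 h it held 31.6 and 46.2 normalized reads in the control, 9.93 and 12.2 with LPS, 49.1 and 66.5 with IL-10 alone and 9.51 and 3.88 with both. It was low in both LPS groups, at 3 to 11 reads per library before normalization. The second control held 112 and 123. At 6 h LPS held 17.3 and 21.2 and LPS with IL-10 234 and 220.1, so that both agents together gave more than this control. At 12 h LPS held 162 and 122, and LPS with IL-10 96.3 and 128.

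LPS lowered Ankrd37 3.52-fold at 3 h (log2 -1.71 ± 0.41, limma adjusted p = 0.0063) and 6.10-fold at 6 h (-2.55 ± 0.24, limma adjusted p = 1.2e-05). At 12 h the change was 0.26 ± 0.24 (limma adjusted p = 0.41), and -0.47 at equal totals. Against LPS, the group with both agents lay at -0.74 ± 0.41, 3.50 ± 0.24 and -0.34 ± 0.24 on the log2 scale at 3, 6 and 12 h. IL-10 alone held 86.4 and 94.7 at 6 h and 107 and 90.6 at 12 h, with no call. In the annotation 349 exon bases of Ankrd37 are shared with Lrp2bp and 57 with Ufsp2 on the opposite strand.

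Vegfa (ENSMUSG00000023951, chromosome 17, 46016993 to 46032369, minus strand) encodes the vascular endothelial growth factor A, a secreted inducer of blood vessel growth. The 3 h control held 493 and 453 normalized reads, LPS 119 and 107, IL-10 alone 358 and 345 and LPS with IL-10 112 and 98.4. LPS lowered Vegfa with or without IL-10, and IL-10 alone lay below the control without a call (log2 -0.43 ± 0.14, limma adjusted p = 0.24). The fall with LPS was 4.18-fold at 3 h (-2.05 ± 0.14, limma adjusted p = 1.5e-06) and 8.75-fold at 6 h (-3.08 ± 0.32, limma adjusted p = 2.1e-05).

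In the second table Vegfa went from 633 and 407 normalized reads in the control to 52.0 and 66.9 with 6 h of LPS and 1009 and 579 with 12 h of LPS. LPS with IL-10 held 361 and 301 at 6 h and 407 and 617 at 12 h. Unlike Hif1a, Ankrd37, Bnip3, Ddit4 and Ndrg1, it did not rise above its control with both agents at 6 h, where both libraries lay below both control libraries. Between LPS with IL-10 and LPS the change was -0.11 ± 0.14, 2.46 ± 0.32 and -0.61 ± 0.32 on the log2 scale at 3, 6 and 12 h. LPS at 12 h was not called against the control (0.59 ± 0.32, limma adjusted p = 0.16, and -0.15 at equal totals).

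Bnip3 (ENSMUSG00000078566, chromosome 7, 138890836 to 138909519, minus strand) encodes a mitochondrial protein that directs mitochondria to autophagy. At 3 h it held 1181 and 927 normalized reads in the control, 1098 and 985 with LPS, 1186 and 1086 with IL-10 alone and 1019.8 and 1044 with both. The range of the control overlapped each of the other 3 groups, with an LPS change of -0.01 ± 0.13 (log2, limma adjusted p = 0.96) that became -0.60 and was called at equal totals. In the second table the control held 1250.4 and 2357, LPS 1145 and 1243 at 6 h and 3676 and 3537 at 12 h. LPS with IL-10 held 5681 and 8449 at 6 h and 4439.6 and 6039.5 at 12 h.

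Bnip3 was therefore already high at 6 h when IL-10 was present and reached 3537 or more at 12 h with or without it. LPS against control was -0.52 ± 0.29 at 6 h (limma adjusted p = 0.14) and 1.07 ± 0.29 at 12 h (2.00-fold, limma adjusted p = 0.010), with the latter at 0.33 and not called at equal totals. LPS with IL-10 against LPS was -0.01 ± 0.13, 2.54 ± 0.29 and 0.52 ± 0.29 on the log2 scale at 3, 6 and 12 h. The 6 h LPS difference was called without the first control library (-0.98, limma adjusted p = 0.0076), with edgeR (-0.78, adjusted p = 0.037), with the GC trend removed (-0.75, limma adjusted p = 0.0038) and at equal totals (-1.67, limma adjusted p = 0.00032). The 12 h call was lost without that control library (0.61, limma adjusted p = 0.070) and without the first 12 h libraries (1.04, limma adjusted p = 0.068), and the antisense gene Gm45507 shares 504 exon bases with Bnip3.

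Ddit4 (ENSMUSG00000020108, chromosome 10, 59949669 to 59951834, minus strand) encodes REDD1, a stress-induced inhibitor of mTORC1. At 3 h the control held 30.0 and 29.4 normalized reads, LPS 3.72 and 7.75, IL-10 alone 31.7 and 41.7, and LPS with IL-10 86.8 and 115. LPS lowered it 5.18-fold (log2 -2.26 ± 0.34, limma adjusted p = 0.00041), to 3 and 7 reads before normalization, and the group with both agents lay above all others.

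Ddit4 held 41.2 and 37.2 normalized reads in the second control. At 6 h it held 39.0 and 19.6 with LPS and 329 and 259 with both. At 12 h LPS held 161 and 127 and LPS with IL-10 87.6 and 159. The gene was thus raised with both agents at 3 and 6 h and with either LPS group at 12 h. LPS against control was -0.48 ± 0.37 at 6 h (limma adjusted p = 0.27; -1.59 and called at equal totals) and 1.85 ± 0.37 at 12 h (3.68-fold, limma adjusted p = 0.0021). Between LPS with IL-10 and LPS the change was 3.97 ± 0.34, 3.35 ± 0.37 and -0.28 ± 0.37 on the log2 scale at 3, 6 and 12 h. At 3 h the value was 2.99 with a pseudocount of 8. IL-10 alone held 40.8 and 51.8 at 6 h and 70.2 and 63.0 at 12 h, the latter above both control libraries without a call (0.75 ± 0.37, limma adjusted p = 0.44).

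Ndrg1 (ENSMUSG00000005125, chromosome 15, 66929318 to 66969640, minus strand) encodes a stress-responsive protein of the N-myc downstream-regulated family. It was the only member called with IL-10 alone. At 3 h it held 395 and 478 normalized reads in the control, 1008 and 944 with LPS, 1134 and 1159 with IL-10 alone and 2262 and 2434 with both. The 4 groups did not overlap. IL-10 alone raised it 2.63-fold (log2 1.40 ± 0.11, limma adjusted p = 0.00032) and LPS 2.24-fold (1.17 ± 0.11, limma adjusted p = 1.9e-05). With LPS present the change with IL-10 was 1.27 ± 0.11, and the difference between the 2 changes was -0.13 ± 0.16.

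Ndrg1 held 825 and 983 normalized reads in the second control. At 6 h it held 1921 and 1436 with IL-10 alone, 614 and 587 with LPS and 7457 and 7604 with both. At 12 h it held 2965 and 2881 with IL-10 alone, 1384 and 1122 with LPS and 2434 and 3867 with both. IL-10 alone stood above the control at every time, and the group with both agents stood highest of all at 6 h. The change with IL-10 alone was 0.88 ± 0.23 at 6 h (1.86-fold, limma adjusted p = 0.62) and 1.70 ± 0.23 at 12 h (3.23-fold, limma adjusted p = 0.0052). The 12 h call was lost without the first IL-10 library (1.68, limma adjusted p = 0.062) with only the 2 groups in the fit (limma adjusted p = 0.17) or when each 12 h group lacked its first library (limma adjusted p = 0.052).

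LPS moved Ndrg1 by -0.58 ± 0.23 at 6 h (1.51-fold lower, limma adjusted p = 0.045) and 0.47 ± 0.23 at 12 h (limma adjusted p = 0.11, and -0.27 at equal totals). The 6 h call was lost without the second control or either LPS library (limma adjusted p = 0.17, 0.11 and 0.15), with no filter on low values (limma adjusted p = 0.069) and with the replicate number as a block (limma adjusted p = 0.059). Against LPS, the group with both agents lay at 3.65 ± 0.23 at 6 h and 1.30 ± 0.23 at 12 h on the log2 scale, 12.5-fold and 2.51-fold. The antisense gene Gm17035 shares 419 exon bases with Ndrg1.

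Seen together against control, LPS at 3 h raised Hif1a, Egln2 and Ndrg1 and lowered Egln1, Egln3, Ankrd37, Vegfa and Ddit4, while Bnip3 was not called. That is 3 members higher, when 27.6% of all genes were, and 5 lower, when 25.9% were. At 6 h Hif1a was the 1 member called higher (28.4% of all genes), and Egln1, Egln3, Ankrd37, Vegfa and Ndrg1 were the 5 called lower (31.3%). At 12 h Hif1a, Bnip3 and Ddit4 were called higher (23.7%), and Egln1 was called lower (23.8%). These tests use the same LPS libraries as the contrast that chose the members, so they are not independent of the choice. With equal library totals 1 member was called higher and 6 lower at 3 h, when 1591 and 7180 of 12338 genes were. The counts were 0 and 7 at 6 h, against 1641 and 8174 of 12817 genes, and 1 and 2 at 12 h, against 1607 and 6417. Under that scaling the median LPS change of all genes was -0.56 at 3 h, -1.16 at 6 h and -0.75 at 12 h, and the members' changes are to be read against those medians.

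**Figure D3:**
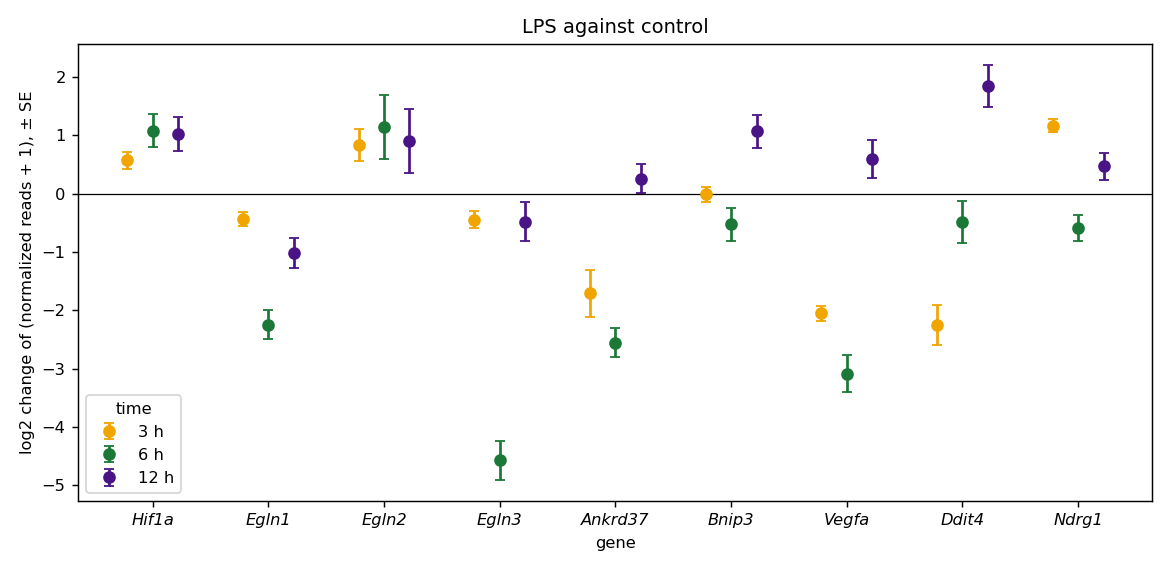
Log2 change of (normalized reads + 1), LPS against the control of the same table, for each gene at 3, 6 and 12 h (points) with the standard error of the fit (bars). Egln1, Egln3, Ankrd37 and Vegfa are lowest at 6 h, from -2.24 to -4.57, and Ddit4, Bnip3 and Hif1a lie above 1 at 12 h. With equal library totals Bnip3 is at 0.33 at 12 h, and neither Bnip3 nor Hif1a is called there.

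The change between 6 and 12 h of LPS was tested within the second table. Egln1, Egln3, Ankrd37, Bnip3, Vegfa, Ddit4 and Ndrg1 were higher at 12 h, 7 members when 11.1% of all genes were, and no member was lower, when 4.67% were. The rise was 18.7-fold for Egln3 (log2 4.09 ± 0.34, limma adjusted p = 5.9e-05), 13.3-fold for Vegfa (3.67 ± 0.32, limma adjusted p = 0.0001) and 7.37-fold for Ankrd37 (2.81 ± 0.24, limma adjusted p = 9e-05). It was 4.92-fold for Ddit4 (2.33 ± 0.37, limma adjusted p = 0.0027), 3.02-fold for Bnip3 (1.59 ± 0.29, limma adjusted p = 0.0054), 2.40-fold for Egln1 (1.23 ± 0.25, limma adjusted p = 0.0099) and 2.09-fold for Ndrg1 (1.05 ± 0.23, limma adjusted p = 0.013). Hif1a stayed within its spread (-0.05 ± 0.29, limma adjusted p = 0.91), as did Egln2 (-0.24 ± 0.55, limma adjusted p = 0.78), which was called with the GC trend removed (-0.55, limma adjusted p = 0.048). The 6 and 12 h LPS libraries also set the change of the IL-10 difference between these times, so this is not separate evidence of it.

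With the first library left out of all 12 h groups, 3 members were called, Egln3, Ankrd37 and Vegfa. Leaving out the first 12 h LPS library alone ended the calls of Egln1 (0.89, limma adjusted p = 0.096) and Ndrg1 (0.90, limma adjusted p = 0.12), as leaving out the first 6 h LPS library did (1.06, limma adjusted p = 0.085, and 1.08, limma adjusted p = 0.068). The Ndrg1 call also ended without the second 6 h LPS library (1.02, limma adjusted p = 0.080). That first 12 h library held 4159 normalized reads of the proliferation marker Mki67 against 874 in the other, and its part in these values beyond the left-out fits was not tested.

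IL-10 alone used no library of the contrast that chose the members. It raised 1 member at 3 h, Ndrg1, when 1.22% of all genes were higher, and lowered none, when 0.421% were. At 6 h it called no member in either direction, when 0.0624% of all genes were higher and none lower. The same fit gave 428 genes at an unadjusted p under 0.05 there, edgeR called 10 and DESeq2 43. At 12 h it again raised Ndrg1 alone, when 1.01% of all genes were higher and 0.546% lower. Between 6 and 12 h of IL-10 alone no member was called, when 0.0078% of all genes were (589 at an unadjusted p under 0.05; 1 by edgeR and 73 by DESeq2). Ndrg1 moved most there (0.81 ± 0.23, limma adjusted p = 0.63).

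**Figure D4:**
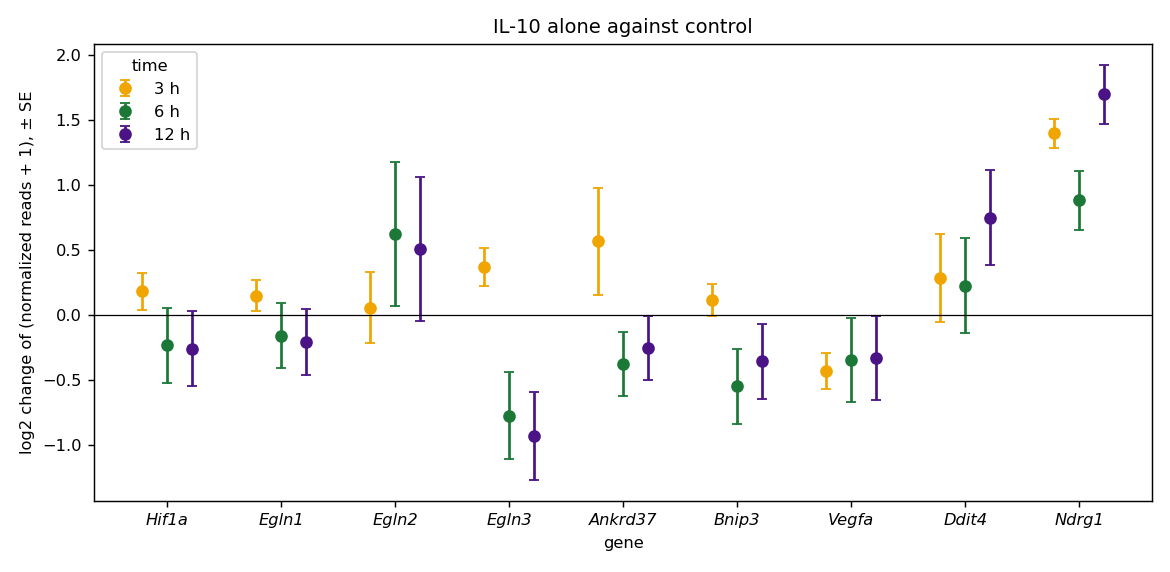
Log2 change of (normalized reads + 1), IL-10 alone against the control of the same table, for each gene at 3, 6 and 12 h (points) with the standard error of the fit (bars). The points of Ndrg1 lie at 1.40, 0.88 and 1.70, and the other 8 genes lie between -0.93 and 0.75.

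Per kilobase of exon, where levels of different genes can be compared, Hif1a and Bnip3 were the most abundant members in both controls, at 899 ± 200 and 465 ± 79.3 normalized reads per kb at 3 h and 581 ± 225 and 796 ± 346 in the second table (SD, n = 2). Ddit4 was the least abundant in both, at 16.9 ± 0.22 and 22.3 ± 1.62. With LPS and IL-10 for 6 h Hif1a reached 3444 ± 855 and Bnip3 3119 ± 864 normalized reads per kb, which do not differ beyond their spread. Ndrg1 followed at 1142 ± 15.8 and Egln1 at 307 ± 37.4. With 6 h of LPS Egln3 was the lowest member, at 6.22 ± 0.74, below Ankrd37 at 12.5 ± 1.78 and Vegfa at 13.9 ± 2.45. The last 2 do not differ beyond their spread.

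In the order of the 7 groups of the second table, LPS at 6 h was the lowest for Egln1, Egln3, Ankrd37, Vegfa, Ddit4 and Ndrg1. For Egln1, Egln3, Ankrd37, Vegfa and Ndrg1 both of its libraries lay below every library of the next group, and for Ddit4 it overlapped the control. LPS with IL-10 at 6 h was the highest for Hif1a, Egln1, Ankrd37, Bnip3, Ddit4 and Ndrg1. It overlapped the next group for Egln1 (the control) and for Bnip3 (LPS with IL-10 at 12 h), and stood clear of it for Hif1a, Ankrd37, Ddit4 and Ndrg1. Egln3 was highest with both agents at 12 h, where it overlapped the 6 h group, and Vegfa with LPS at 12 h, where it overlapped the control.

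Across the 14 libraries of the second table, Egln3 and Ankrd37 had a Pearson r of 0.94 on the log2 scale, and 0.92 across the 8 libraries of the 3 h table. Egln3 and Vegfa had 0.88 and 0.85, and Egln1 and Egln3 0.88 and 0.88. Egln2 ran against Egln3, with r of -0.54 and -0.83. Hif1a and Bnip3 had 0.76 in the second table and 0.08 at 3 h, and Bnip3 and Ddit4 0.87 and -0.03. These values describe libraries that share treatments and a common scaling.

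Among 9976 genes searched, the nearest patterns over the 14 libraries were those of Kdm2a for Hif1a (r 0.99), Elmsan1 for Egln1 (0.99), Tnrc18 for Egln2 (0.97), Lhfpl2 for Egln3 (0.97), Alkbh5 for Ankrd37 (0.95), Kctd18 for Bnip3 (0.97), Slc16a6 for Vegfa (0.97), Arid3a for Ddit4 (0.95) and 6330416G13Rik for Ndrg1 (0.97). Over the 8 libraries of the 3 h table the likeness held for Slc16a6 with Vegfa (0.88), Tnrc18 with Egln2 (0.88), Lhfpl2 with Egln3 (0.85) and Alkbh5 with Ankrd37 (0.82). It was -0.73 for Kdm2a with Hif1a and -0.50 for Kctd18 with Bnip3. The second nearest to Ankrd37 was the member Egln3.

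Of the partners, Arnt, the beta subunit, rose with LPS at 6 h (log2 0.55 ± 0.16, limma adjusted p = 0.011) and 12 h (0.70 ± 0.16, limma adjusted p = 0.0043), but was at -0.59 and -0.04 with equal library totals. Epas1, the related HIF-2 alpha subunit, fell at both times (-1.76 ± 0.34, limma adjusted p = 0.00099, and -1.21 ± 0.34, limma adjusted p = 0.012) from a mean of 50.7 normalized reads, and was lower at equal totals too (-2.84 and -1.93). Vhl fell with LPS at 3 h (-0.32 ± 0.11, limma adjusted p = 0.032) and rose at 6 h (0.70 ± 0.17, limma adjusted p = 0.0048) and 12 h (0.87 ± 0.17, limma adjusted p = 0.0021), at -0.91, -0.44 and 0.13 with equal totals. Hif1an, the asparagine hydroxylase that blocks HIF coactivator binding, rose at 6 h (0.54 ± 0.14, limma adjusted p = 0.0066), and was at -0.60 with equal totals. With LPS and IL-10 against LPS at 6 h these 4 lay between -0.40 and 0.59.

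Of 15 genes of the HIF machinery, 14 were tested at 3 h, and LPS raised 4 and lowered 1. All 15 were tested later, when LPS raised 12 and lowered 1 at 6 h and raised 8 and lowered 1 at 12 h (median log2 change 0.25, 0.70 and 0.56, against 0.03, -0.04 and -0.02 for all genes). The scaling decides this direction, since at equal totals the counts were 2 and 9, 4 and 7, and 2 and 3. Cited2, which competes with HIF-1 alpha for its coactivators, rose with LPS from a mean of 1683 to 14289 normalized reads at 3 h (3.10 ± 0.14). It held 4987 with both agents at 3 h, and at 6 h 10729.8 with LPS and 608 with both. IL-10 alone lowered it at 3 h (-0.80 ± 0.14, limma adjusted p = 0.024), the 1 gene of this list called there. Siah2, a ubiquitin ligase for the Egln enzymes, rose with LPS at 3 h (1.10 ± 0.13, limma adjusted p = 0.00011). Rbx1, part of the Vhl ligase complex, rose by 0.34 ± 0.09 (limma adjusted p = 0.012), and was at -0.24 with equal totals.

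Of 18 HIF targets in glucose metabolism, LPS raised 9 and lowered 1 at 3 h, 4 and 3 at 6 h and 5 and 2 at 12 h. At equal totals these became 1 and 6, 0 and 11, and 2 and 5. For LPS with IL-10 against LPS the counts were 1 and 0 at 3 h, 4 and 1 at 6 h and 1 and 1 at 12 h, with medians of 0.06, 0.14 and 0.37. Of all genes, 4.68% were higher and 4.92% lower at 3 h, 13.7% and 10% at 6 h, and 2.68% and 2.23% at 12 h. Their medians were 0.01, 0.01 and -0.06. Pfkfb3, which makes the activator of phosphofructokinase, stood apart, at 1209 normalized reads with LPS and 11806 with both at 3 h (log2 3.29 ± 0.08). At 6 h it was at 1459 and 37377 (4.68 ± 0.41), and at 12 h at 3947 and 11771 (1.54 ± 0.41). Hexokinase 2, Hk2, rose with LPS at 3 h (2.48 ± 0.09) and was higher with IL-10 present at 6 h (1.20 ± 0.17) and lower at 12 h (-0.86 ± 0.17). Pfkfb4, a separate gene of the same family as Pfkfb3, fell with LPS at 3 h (-1.37 ± 0.18). Gbe1, the glycogen branching enzyme, rose (0.41 ± 0.12, limma adjusted p = 0.016, and -0.18 with equal totals).

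Of 26 other HIF targets, 24 were tested at 3 h, where LPS raised 11 and lowered 4. At 6 and 12 h all 26 were tested, with 7 higher and 7 lower and then 8 higher and 2 lower. At equal totals the counts were 6 and 12, 4 and 16, and 8 and 10. LPS with IL-10 against LPS gave 3 higher and 2 lower at 3 h, 11 and 2 at 6 h and 0 and 1 at 12 h, with medians of -0.04, 0.64 and 0.12. At 6 h 13.7% of all genes were higher and 10% lower, with a median of 0.01. Bhlhe40, a HIF-induced transcriptional repressor, was lower with both agents than with LPS at 3 h (206 against 450.0 normalized reads, log2 -1.12 ± 0.14) and higher at 6 h (2.93 ± 0.44). It was at 344 normalized reads in the second control, 48.9 with LPS at 6 h, 338 with both at 6 h and 245 with LPS at 12 h. Nos2, the inducible nitric oxide synthase, held 4290.2 with LPS and 26070.0 with both at 3 h, and 57381 and 53661 at 6 h, and Edn1, endothelin-1, held 3804 and 7956 and then 19660.0 and 5652.

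Of 13 relatives of the members, 10 were tested, and LPS raised 4 and lowered 3 at 3 h, 6 and 4 at 6 h and 5 and 3 at 12 h (3 and 5, 5 and 5, and 5 and 4 at equal totals). Kdr, a receptor of VEGF-A, rose with LPS at 3 h (1.19 ± 0.13) and went from 196 to 4289 normalized reads at 6 h, where LPS with IL-10 held 622. Flt1, another VEGF receptor, held 116 with LPS and 312 with both at 3 h (1.43 ± 0.16). Of the coreceptors, Nrp2 rose with LPS (0.87 ± 0.09) and Nrp1 fell (-0.41 ± 0.09) at 3 h. IL-10 alone called no gene of these 4 lists at 6 or 12 h, and at 3 h Cited2 and, higher, Pfkfb3 (0.54 ± 0.08, limma adjusted p = 0.013). The lists were drawn up with earlier results of these data known, and their counts are a description. The shares of all genes called with LPS, given above beside the members, are the background for these lists too.

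**Figure D5:**
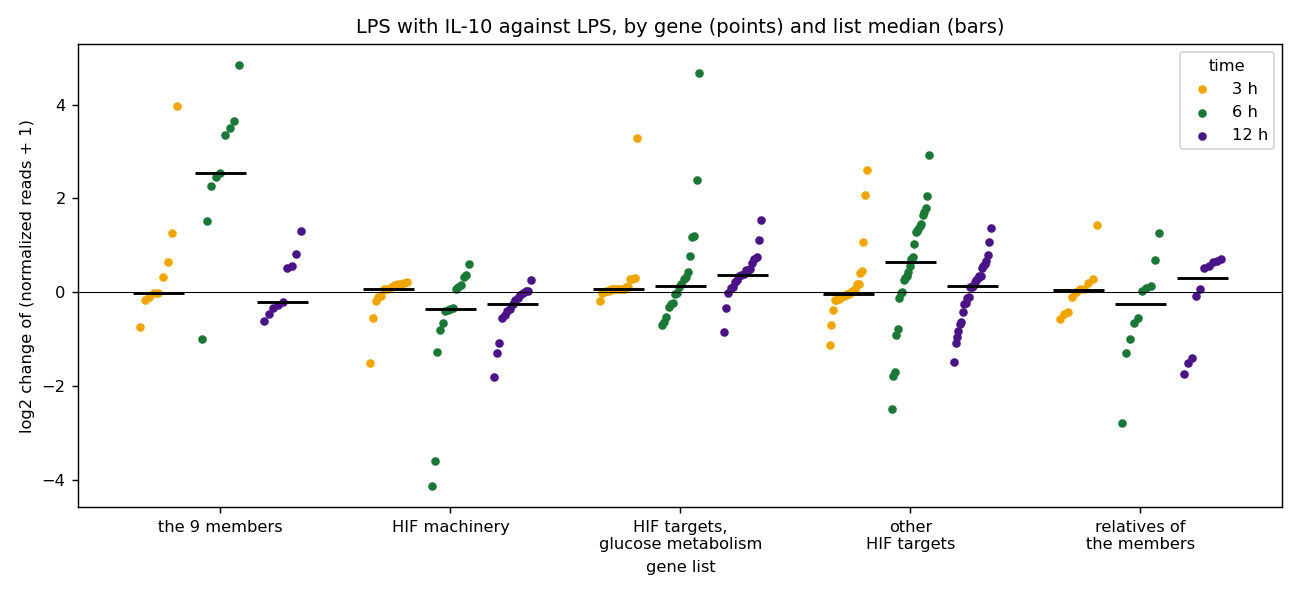
Log2 change of (normalized reads + 1), LPS with IL-10 against LPS, for each gene (points) and the list median (bars) of the 9 members and of 4 pathway lists at 3, 6 and 12 h. At 6 h the median is 2.54 for the members, -0.36 for the HIF machinery, 0.14 for the targets in glucose metabolism, 0.64 for the other targets and -0.26 for the relatives. With equal library totals the machinery is at -0.05 and the relatives at 0.05.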

How the data were processed

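RNA-seq libraries of bone marrow-derived macrophages were analysed from 2 deposited tables, of 8 libraries (3 h) and 14 libraries (6 and 12 h), with 2 libraries per group. Per the submitters' processing notes, reads were aligned to GRCm38 with TopHat2 and DESeq2 was used, without versions; which tool, annotation and strand setting served for counting is not stated there. The values deposited by the authors are a normalized signal: gene counts divided by a size factor per library. Dividing by the step of each library returned whole reads for 100.0% of the values (within 0.01 of a whole number), which gave the depth of 9337222 to 31772075 reads per library. Gene IDs were matched to GENCODE M21 (36429 found), and 27 gene symbols in the 3 h table had been turned into dates, none of a gene named here.

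Differences were tested with limma 3.58.1 (R 4.3.3, moderated test with trend, two-sided) on log2(normalized reads + 1), with all groups of a table in one fit. Genes with 10 or more normalized reads in 2 or more libraries entered, 12338 in the 3 h table and 12817 in the other, and p-values were adjusted by Benjamini-Hochberg over them with a threshold of 0.05. The tables were normalized separately, and tests stay within one. The fit was checked on simulated counts with known changes. Alternatives were a pseudocount of 8, no filter, TMM scaling, equal library totals, removal of the GC trend of each library, a replicate block, only the groups compared, each library left out, and edgeR 4.0.16 and DESeq2 1.42.0 on the recovered reads.

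The members and lists were chosen with earlier results of these data known. Named were the 9 members and 4 of their partners (Epas1, Arnt, Vhl, Hif1an). Of each list were named up to 3 genes with the smallest p with LPS at 3 h or IL-10 alone at 12 h, and up to 3 with the largest change between LPS with IL-10 and LPS at 3 h, if called and at a mean of 100 normalized reads or more. Some genes that meet this rule are not reported here. The nearest patterns are by Pearson r over the 14 libraries. Promoter windows come from RefSeq.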

Additional observations from a re-analysis of the deposited data

Results flagged for a closer look

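The change between 6 and 12 h of LPS, both read against the same control, passed the limma test (adjusted p of 0.013 or less) for 7 members. All 7 were higher at 12 h, when 11.1% of all genes were. These LPS libraries also enter the contrast that chose the members, so the test is not independent of the choice. The 12 h value minus the 6 h value was 4.09 for Egln3, 3.67 for Vegfa, 2.81 for Ankrd37, 2.33 for Ddit4, 1.59 for Bnip3, 1.23 for Egln1 and 1.05 for Ndrg1 on the log2 scale. The 12 h LPS libraries were higher than the 6 h ones in 2 of 2 for each of these genes.

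Some of these genes, and Egln2, also stood out because both libraries lay on one side of the comparison group at one time and on the other side at another time. Differences between 3 h and a later time were not tested, nor is the change of LPS with IL-10 against LPS, which chose the members. LPS against control was on opposite sides for Bnip3 (-0.52 at 6 h and 1.07 at 12 h), Ddit4 (-2.26 at 3 h and 1.85 at 12 h) and Ndrg1 (1.17 at 3 h, -0.58 at 6 h and 0.47 at 12 h), of which the changes of Bnip3 and Ndrg1 from 6 to 12 h are those tested above. Against control, Bnip3 at 6 h and Ndrg1 at 12 h were not called (limma adjusted p = 0.14 and 0.11). With equal library totals Ndrg1 at 12 h was negative, and Bnip3 at 12 h lost its call. IL-10 alone was on opposite sides at 3 h and later for Egln1 (0.15, then -0.16 at 6 h and -0.21 at 12 h), Egln3 (0.37, then -0.77 and -0.93) and Ankrd37 (0.57, then -0.37 and -0.25). None of the 9 values of IL-10 alone was called. LPS with IL-10 against LPS was on opposite sides for Egln2 (0.64 at 3 h, then -1.01 at 6 h and -0.48 at 12 h), Egln3 (-0.17, then 4.84 and 0.80) and Ankrd37 (-0.74 at 3 h and 3.50 at 6 h). The 3 h values come from the other table, which has its own control.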

How the results depend on the processing

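Of 1457 values of single members under an alternative, 1305 counted as kept, 44 lost a call, 17 gained one, 42 moved beyond the spread of the libraries and 49 changed sign. The cause was not tested. Kept means the same direction and the same side of the threshold. For LPS with IL-10 against LPS it means only a move smaller than that spread. In that contrast a sign change was counted only for genes called in the main fit, so the 1305 can hold changes of sign. With equal library totals the LPS change turned to -0.019 at 3 h and -0.060 at 6 h for Hif1a, and at 12 h to -0.47 for Ankrd37, -0.15 for Vegfa and -0.27 for Ndrg1. LPS calls over all genes were then 1591 higher and 7180 lower at 3 h (3400 and 3201 as reported), 1641 and 8174 at 6 h (3644 and 4009) and 1607 and 6417 at 12 h (3036 and 3047). LPS with IL-10 against LPS at 6 h gave 3234 and 629 (1750 and 1287), and LPS at 12 h against 6 h 2451 and 193 (1422 and 599). edgeR gave 1408 and 296 for the latter, and 404 and 217 for LPS with IL-10 at 12 h (344 and 286). Egln2 with IL-10 alone at 3 h was at -0.029 with DESeq2 and -0.062 with edgeR, and Ddit4 with IL-10 alone at 6 h at -0.017 with the GC trend removed, with or without the replicate block. Hif1a between 6 and 12 h of LPS was at 0.030 with edgeR, 0.032 with TMM, 0.35 at equal totals, 0.12 with the GC trend removed (with the block too) and 0.093 without the first 12 h libraries, and Egln2 at 0.16 at equal totals. Between 6 and 12 h of IL-10 alone, GC removal gave 0.023 for Egln1 and 0.0071 for Egln2 with or without the block, leaving out the first 12 h libraries gave 0.16 for Egln2, and Vegfa was at -0.0032 with DESeq2, -0.036 with edgeR, -0.0022 at equal totals, -0.015 with TMM and -0.0008 without the first 12 h libraries.

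With only the groups compared in the fit, 5 members were called with LPS at 3 h and 1 at 12 h, none with IL-10 alone at 12 h, and 4 and 0 for LPS with IL-10 at 3 and 12 h. Genes called were then 3277 for LPS at 12 h, 21, 0 and 0 for IL-10 alone at 3, 6 and 12 h, 3349 and 33 for LPS with IL-10 at 3 and 12 h, and 165 between 6 and 12 h of IL-10 alone. With the GC trend removed, IL-10 alone called 604, 25 and 891 genes at 3, 6 and 12 h, and LPS with IL-10 2307, 4864 and 1989 (4 members at 3 h). It called 4604 between 6 and 12 h of LPS and 31 for IL-10 alone. The labels do not say whether the numbers of the libraries pair them. Correlations of same-numbered deviations ran from -0.05 to 0.27 at 3 h and from -0.41 to 0.70 later. At 6 h the second control had 0.70 with LPS with IL-10 and 0.40 with LPS, and these LPS groups had 0.33 with each other. Same-numbered libraries thus deviated together in these groups and not in others. The replicate block called 334 genes with IL-10 alone at 3 h and ended the call of Ndrg1 at 6 h of LPS (adjusted p = 0.059). With the block and GC removal, IL-10 alone called 619, 17 and 711 genes (2 members at 3 h, the second being Vegfa at -0.43), LPS with IL-10 2367 at 3 h (4 members) and 1714 at 12 h, and the changes from 6 to 12 h 4195 with LPS and 12 with IL-10 alone. DESeq2 called 43 and 578 genes with IL-10 alone at 6 and 12 h, 1061 for LPS with IL-10 at 12 h and 73 between 6 and 12 h of IL-10 alone, and a pseudocount of 8 called 5 with IL-10 alone at 6 h. With the first library left out of all 12 h groups, 0 and 32 genes were called with IL-10 alone at 6 and 12 h (0 members at 12 h), 975 for LPS with IL-10 at 12 h (2 members), 223 between 6 and 12 h of LPS (3 members) and 0 of IL-10 alone.

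Leaving out 1 library at a time, members called ran from 5 to 8 with LPS at 3 h, 4 to 7 at 6 h and 2 to 4 at 12 h, 1 to 2 and 0 to 1 with IL-10 alone at 3 and 12 h, 0 to 1 for LPS with IL-10 at 12 h and 5 to 7 between 6 and 12 h of LPS. Genes called ran from 3778 to 6190 with LPS at 12 h, 45 to 1915, 0 to 6 and 31 to 286 with IL-10 alone at 3, 6 and 12 h, 459 to 546, 862 to 2728 and 86 to 990 for LPS with IL-10, 490 to 3001 between 6 and 12 h of LPS and 0 to 60 of IL-10 alone. Changes that crossed 0 were those of LPS for Bnip3 at 3 h (-0.18 to 0.17) and Egln2 at 12 h (-0.12 to 1.93), those of IL-10 alone at 3 h for Hif1a (-0.046 to 0.41), Egln2 (-0.41 to 0.52) and Bnip3 (-0.057 to 0.29), at 6 h for Hif1a (-0.64 to 0.17) and Egln2 (-0.40 to 1.65), and at 12 h for Hif1a (-0.66 to 0.15), Egln2 (-0.52 to 1.53) and Bnip3 (-0.81 to 0.10). From 6 to 12 h they were Hif1a (-0.21 to 0.10) and Egln2 (-0.56 to 0.069) with LPS, and Hif1a (-0.28 to 0.23), Egln1 (-0.11 to 0.011), Egln2 (-0.40 to 0.16), Egln3 (-0.33 to 0.012) and Vegfa (-0.21 to 0.24) with IL-10 alone. For LPS with IL-10 against LPS, those that crossed 0 were Egln1 (-0.13 to 0.094) and Bnip3 (-0.091 to 0.067) at 3 h and Ddit4 (-0.70 to 0.15) at 12 h. With 2 libraries a group and 3 to 11 reads of Ddit4 and Ankrd37 at 3 h of LPS, depth limits the folds of these genes.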
